A study of Mus musculus with 28 samples.

Results

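A set of 35 genes of glucose uptake, glycolysis, the pentose phosphate pathway and the TCA cycle was followed through activated mouse T cells given inhibitors of histone deacetylases. The genes were chosen by name, with earlier results of these data known. For each, the probe set with the highest mean over the 28 arrays was read. Of the 35 genes, 32 were measured, among 18194 genes with a probe set of their own, and all 32 were among the 9871 genes that passed a filter on low values. Eno1, Gpi1 and G6pdx were not analysed here.

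Splenic CD4 or CD8 T cells of mice had been taken by negative selection and stimulated for 2 days with antibodies to CD3 (3 µg/ml, bound to the plate) and CD28 (5 µg/ml). For 1 more day they then received romidepsin at 2, 10 or 30 nM, vorinostat at 0.5, 2 or 10 µM, or neither drug (stimulated control). All 14 groups thus share the stimulation, the controls included, and no unstimulated cells were analysed here. Each group held 2 arrays, numbered replicate 1 and 2, so every mean rests on n = 2 and this number limits the precision. The labels give no strain, age or sex of the mice, name no vehicle for the control, and do not say whether the replicates were separate cultures or animals, so the p-values measure only the spread between these arrays.

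Resting T cells oxidise pyruvate, fatty acids and amino acids in mitochondria, and on activation they take up far more glucose and turn much of it into lactate. Glycolysis splits glucose into pyruvate, phosphofructokinase being a main control step, and lactate dehydrogenase with the monocarboxylate transporters disposes of lactate. The pentose phosphate pathway branches off above phosphofructokinase to make NADPH and ribose, and pyruvate dehydrogenase passes pyruvate into the TCA cycle, whose first enzyme is citrate synthase. Romidepsin and vorinostat block histone deacetylases, the enzymes that take acetyl groups off histones and other proteins.

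Values below are GCRMA values, read as log2 units, and a change is drug minus control on that scale with its standard error from limma. A gene passed where its Benjamini-Hochberg adjusted p over all 9871 genes was under 0.05. The detection level was set at 4.27, and 8446 to 9321 genes exceeded it in an array. Arrays of replicate 1 differed from those of replicate 2 as sets: the Y-linked Eif2s3y was at 11.36 to 12.02 in replicate 1 and 2.25 in replicate 2, and Xist was at 2.27 in replicate 1 and 11.69 to 12.72 in replicate 2. These are values of male cells in replicate 1 and of female cells in replicate 2, so the sets came from different mice. Sex cannot be separated from replicate number, and without the block the spread between arrays includes this difference. Counts are therefore also given from a fit with the replicate number as a block, called the block fit below. A gene said to pass with the block alone passed in this fit and not in the limma fit without it, whatever other fits gave. A 95% interval reached 0.97 to either side of a change in the median without the block and 0.35 with it.

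The cell labels were checked against marker genes. Cd4 lay between 2.39 and 8.55 in CD4 arrays and under the detection level in 3 of them, both of romidepsin at 30 nM and replicate 1 of vorinostat at 10 µM, while Cd8a lay at 9.34 to 12 in CD8 arrays against at most 6.07 in CD4 arrays. Of 5 measured B cell markers, 4 lay over the detection level in some CD4 array and 2 in some CD8 array. Their summed level was 4.60 to 10.06 in drug and 6.84 to 10.35 in control CD4 arrays, and 4.82 to 8.82 in drug and 7.01 to 9.09 in control CD8 arrays, with Pax5 at most at 2.27. Of 8 myeloid markers only Cd68 was over the detection level, at a summed level of 6.06 to 7.70 in drug and 6.31 to 7.21 in control arrays, and the erythroid, dendritic and fibroblast markers all lay under it. The NK cell gene Ncr1 was at most at 2.27, and Klrd1, which activated CD8 T cells also use, was at 3.70 to 13.3 in CD8 arrays and 2.30 to 5.76 in CD4 arrays. As a measure of RNA quality, beta-actin read at the 3' end minus the 5' end was 0.97 to 1.62 in the top-dose CD4 arrays and 0.78 to 0.94 in the CD4 controls, and 0.90 to 1.43 in the top-dose CD8 arrays and 0.79 to 0.86 in the CD8 controls. Gapdh read in the same way was 0.07 to 0.34 in the top-dose arrays of both cell types and 0.08 to 0.2 in their controls. The part of B cells, of RNA quality and of the replicate sets in the results below was not tested further than in the fits given beside them, and a smaller number of cells cannot be told apart from less RNA per cell.

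The genes on which the results turn most are Pfkl (liver-type phosphofructokinase), Tpi1 (triosephosphate isomerase), Slc16a3 (a lactate exporter) and Eno2 (neuronal enolase). The first 3 were among the members with the largest falls, and Eno2 showed the largest rise. Their promoter windows, from 250 bases before to 50 bases after the transcription start, are printed from RefSeq (GRCm38.p6) to show the start sites of the 3 genes that fell beside that of the gene that rose. Capitals mark the GC box GGGCGG, which Sp-family factors bind, and the hypoxia response core ACGTG, searched on both strands. Pfkl lies at chr10:78009758-78010057 (minus strand), Tpi1 at chr6:124814109-124814408 (minus strand), Slc16a3 at chr11:120948817-120949116 (plus strand) and Eno2 at chr6:124769624-124769923 (minus strand).
Pfkl: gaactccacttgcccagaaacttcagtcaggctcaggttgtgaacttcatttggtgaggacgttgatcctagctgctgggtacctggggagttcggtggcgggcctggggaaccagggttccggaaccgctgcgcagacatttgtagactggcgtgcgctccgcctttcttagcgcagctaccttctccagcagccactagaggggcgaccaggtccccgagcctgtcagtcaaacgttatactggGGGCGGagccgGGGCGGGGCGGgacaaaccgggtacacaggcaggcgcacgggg
Tpi1: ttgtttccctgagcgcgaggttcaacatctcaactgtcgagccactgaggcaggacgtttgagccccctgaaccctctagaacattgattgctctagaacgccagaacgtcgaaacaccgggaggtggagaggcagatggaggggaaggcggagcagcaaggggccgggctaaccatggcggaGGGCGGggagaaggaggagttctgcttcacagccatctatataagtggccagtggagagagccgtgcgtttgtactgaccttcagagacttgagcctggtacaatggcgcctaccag
Slc16a3: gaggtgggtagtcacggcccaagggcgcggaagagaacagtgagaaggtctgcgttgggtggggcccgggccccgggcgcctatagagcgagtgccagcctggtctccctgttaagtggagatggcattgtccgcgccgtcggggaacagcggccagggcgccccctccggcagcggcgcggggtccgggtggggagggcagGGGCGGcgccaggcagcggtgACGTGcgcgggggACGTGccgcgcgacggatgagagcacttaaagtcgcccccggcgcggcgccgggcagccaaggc
Eno2: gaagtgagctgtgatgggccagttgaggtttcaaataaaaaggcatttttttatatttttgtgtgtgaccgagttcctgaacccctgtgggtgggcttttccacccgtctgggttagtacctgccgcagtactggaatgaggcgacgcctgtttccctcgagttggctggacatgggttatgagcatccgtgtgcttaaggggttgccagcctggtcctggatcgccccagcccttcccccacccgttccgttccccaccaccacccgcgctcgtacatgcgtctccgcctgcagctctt

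The Pfkl window held 3 GC boxes and no hypoxia core, that of Tpi1 held 1 GC box and no core, that of Slc16a3 held 1 GC box and 2 cores, and that of Eno2 held neither. The genes printed were picked by their response, and other members show no such split. Of genes that fell, the window of Pfkp held 4 GC boxes and that of Eno3 neither motif. Of genes that rose, the windows of Cs and Taldo1 held 3 and 1 GC boxes. That of Ldhb, which rose in the block fit, held neither. Windows were found for 33 of the 35 listed genes, 51 windows in all, and not for Slc2a3 and Idh3a. A GC box stood in 30 of these 51 windows (58.8%) and in 35.7% of all 32851 windows of the table. The core ACGTG stood in 23 of the 51 (45.1%) and in 19.6% of all, and the E-box CACGTG, which contains that core, in 6 of the 51 (11.8%) and in 7.15% of all. These are counts of letters in the windows, and they were not set against the responses.

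In CD4 cells with romidepsin at 30 nM, 3 of 4 transporters of glucose and lactate fell (Slc2a1, Slc2a3 and Slc16a3), as did 4 of 8 members of upper glycolysis (Hk1, Pfkl, Pfkp and Tpi1) and 2 of lower glycolysis (Pgam1 and Pkm), and Eno2, Taldo1, Cs and Fh1 rose. Of the 32 members, 4 rose and 9 fell, while 13.3% of all tested genes rose and 7.91% fell, and the median change of the members was -0.36 against 0.07 for all tested genes. The block fit called 7 up and 16 down, against 35.3% and 28.3% of all genes. Leaving out romidepsin replicate 1 or replicate 2 left 8 calls each, leaving out control replicate 1 left 7 and leaving out control replicate 2 gave 14. The calls of Slc2a3, Slc16a3, Hk1, Pfkl, Tpi1 and Eno2, 6 of the 13, held in all 4 of these fits. A block fit with the actin difference as a covariate, chosen after the data had been seen, called 4 up and 9 down. The actin difference rose from the lowest to the top dose of each drug, so this fit cannot tell RNA quality apart from drug response. No share of all genes is given for this fit, here or below. In it Slc2a1, Pgam1 and Fh1 did not pass (adjusted p = 0.0798, 0.0562 and 0.0949), while Idh3a, Aldoc and Sdha did.

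**Figure D1:**
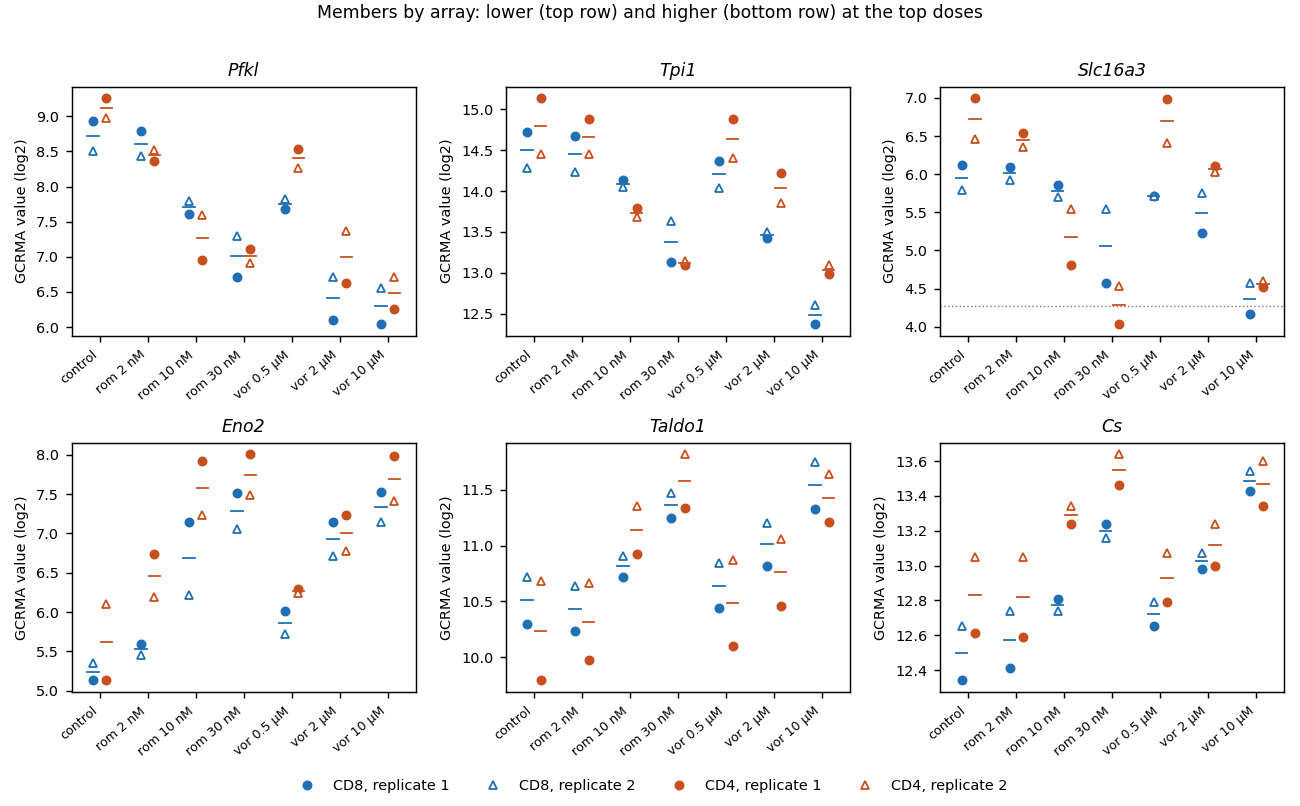
GCRMA values (log2, vertical axis) of 6 members in every array by drug and dose (horizontal axis), CD8 in blue and CD4 in orange, circles for replicate 1 and triangles for replicate 2, with short lines at the means and the detection level of 4.27 dotted where it falls in range. Pfkl, Tpi1 and Slc16a3 are lower and Eno2, Taldo1 and Cs higher at the top doses than in the controls of the same cell type.

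Among the transporters, Slc2a1, the main glucose importer of activated T cells, had 12.61 and 12 in CD4 cells with romidepsin at 30 nM and 14.08 and 13.07 in control CD4 cells. It fell by 1.27 ± 0.42 (adjusted p = 0.0421), a call that was lost without either romidepsin array, without control replicate 1, with no filter or with equal medians (for the filter and the medians, adjusted p = 0.0722 and 0.174). Slc2a3, a second high-affinity glucose importer, had 12.77 and 12.95 with romidepsin against 13.98 and 13.93 in controls. Both arrays of Slc2a3 lay under both controls, and the fall of 1.10 ± 0.19 passed (adjusted p = 0.000732). Slc16a3 had 4.03 and 4.53 with romidepsin, 1 array of the 2 under the detection level, against 7.0 and 6.46 in controls. Its fall of 2.46 ± 0.33 (adjusted p = 7.87e-05) was the largest of any member in this comparison. Slc16a1, the other monocarboxylate transporter of the list, changed by -0.55 ± 0.29 (adjusted p = 0.207, and 0.00865 with the block). Without the block it passed with equal medians and after quantile normalization (adjusted p = 0.0385 and 0.0444).

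In upper glycolysis 4 of 8 measured members fell and none rose, at a median of -0.88. Pfkl had 7.11 and 6.91 with romidepsin at 30 nM in CD4 cells and 9.26 and 8.98 in the controls, a fall of 2.11 ± 0.32 (adjusted p = 0.000203). Pfkp, the platelet-type subunit of the same enzyme, had 10.80 and 11.26 with romidepsin against 12.20 and 12.16 in controls. It fell by 1.15 ± 0.27 (adjusted p = 0.00611). This call was lost without romidepsin replicate 1, and also with the mean over its probe sets (adjusted p = 0.386). Pfkm, the muscle-type subunit, changed by -0.46 ± 0.37 (adjusted p = 0.466, and 0.0483 with the block), so the values of the subunits span a wide range. Hk1, a hexokinase that traps glucose in the cell, had 10.48 and 10.76 with romidepsin and 11.69 and 12 in controls and fell by 1.23 ± 0.23 (adjusted p = 0.00117). Its paralogue Hk2 changed by -0.26 with neither fit passing it. Tpi1 had 13.10 and 13.14 with romidepsin against 15.14 and 14.46 in controls, and fell by 1.68 ± 0.27 (adjusted p = 0.000352). Aldoa, the aldolase most cells use, lay at 14.69 and 14.56 with romidepsin and 14.73 in both controls (-0.11 ± 0.15, 95% interval -0.42 to 0.21). The aldolase paralogue Aldoc changed by -0.62 ± 0.40 and passed with the block alone (adjusted p = 0.0098).

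In lower glycolysis, Pgam1 (phosphoglycerate mutase) fell by 0.68 ± 0.21 and Pkm (pyruvate kinase) by 1.25 ± 0.29 in CD4 cells at 30 nM (adjusted p = 0.0271 and 0.00485), Pgam1 passing again only when control replicate 2 was the array left out. Pkm had 11.90 and 11.71 with romidepsin and 13.39 and 12.74 in controls, with no overlap between the groups, and it did not pass without control replicate 1 (adjusted p = 0.0891). Eno2 went the other way, with 8.01 and 7.49 under romidepsin against 5.13 and 6.10 in controls, and rose by 2.14 ± 0.38, 4.40-fold (adjusted p = 0.000732). Gapdh and Pgk1, which catalyse consecutive steps between Tpi1 and Pgam1, stayed within a narrow band: Gapdh had 14.62 and 14.34 with romidepsin against 14.74 and 14.58 in controls (95% interval of the change -0.62 to 0.24) and Pgk1 had 14.03 and 14.05 against 14.13 and 14.22 (-0.46 to 0.19). Of the members, 10 averaged over 13 and sat near the bright end of the scale, where the highest values per array were 16.2 to 16.7, and signal there can be compressed. The muscle enolase Eno3 changed by -1.76 ± 0.89 and the lactate dehydrogenase subunits Ldha and Ldhb by -0.59 ± 0.32 and 1.01 ± 1.00. All 3 passed with the block and not in the limma fit without it (adjusted p with the block = 0.000192 for Eno3, 0.000518 for Ldha and 0.000473 for Ldhb). With equal medians and no block Eno3 and Ldha passed too (adjusted p = 0.0393 and 0.00337). Ldhb had 9.47 and 10.52 with romidepsin against 8.14 and 9.84 in controls, and for these 3 genes replicate 2 read higher than replicate 1 in each of the 14 groups.

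Taldo1 (transaldolase), in the non-oxidative branch of the pentose phosphate pathway, had 11.34 and 11.82 with romidepsin at 30 nM in CD4 cells and 9.79 and 10.68 in controls. It rose by 1.34 ± 0.36 (adjusted p = 0.0145), but not past the threshold without romidepsin replicate 2 or control replicate 1. Tkt (transketolase), its partner in that branch, changed by -0.55 ± 0.37, in the other direction. Tkt passed with the block (adjusted p = 0.00444) and, without it, only with equal medians (0.0143). Pgd, which makes NADPH in the oxidative branch, changed by 0.27. In the TCA cycle 2 of 7 members rose and none fell, at a median of 0.40. Cs (citrate synthase) had 13.46 and 13.64 with romidepsin against 12.61 and 13.05 in controls and rose by 0.72 ± 0.21 (adjusted p = 0.0227), and Fh1 (fumarase) rose by 0.74 ± 0.25 (adjusted p = 0.042). Both of these calls held only when control replicate 2 was the array left out. Idh3a (isocitrate dehydrogenase) and Mdh2 (malate dehydrogenase) changed by 0.59 ± 0.28 and 0.40 ± 0.14 and passed with the block alone (adjusted p = 0.000368 and 0.000891). The succinate dehydrogenase subunit gene Sdhb lay at 11.07 and 12.24 with romidepsin and 10.98 and 12.24 in controls. Sdha, another subunit gene of that enzyme, had 10.19 and 10.86 with romidepsin against 10.26 and 11.30 in controls. Over the middle and top doses of both drugs in both cell types Sdha changed by -0.55 to -0.21. No such change of Sdha passed with limma, and each was called down in the block fit with the actin covariate. Between pyruvate and the cycle, Pdk1, a kinase that inhibits pyruvate dehydrogenase, changed by -0.78 ± 0.32 (adjusted p = 0.1, and 0.00859 with the block), although its other probe sets ran from -1.07 to 0.12, and Pdha1, the catalytic subunit of that enzyme, changed by 0.05.

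**Figure D2:**
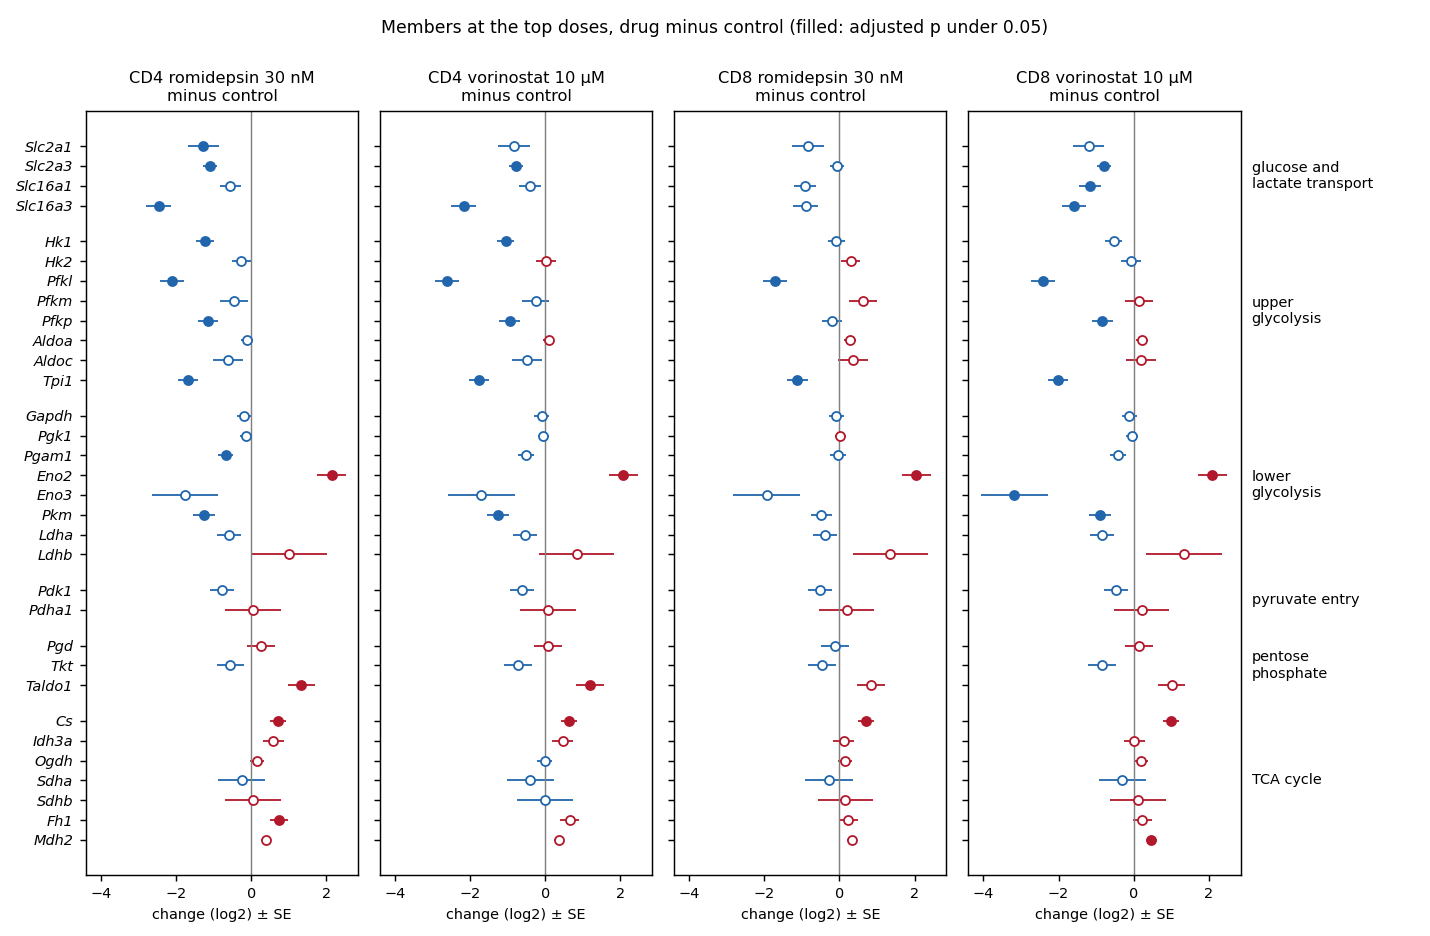
Change of each measured member at the top dose (log2, horizontal axis, drug minus control, bars ± 1 standard error), ordered by role down the page, with a panel for each of 4 comparisons and filled points where the adjusted p was under 0.05. The transporters and Pfkl, Hk1, Pfkp and Tpi1 lie left of 0 in all 4 panels, while Eno2, Taldo1 and Cs lie right of 0 in all 4.

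The same CD4 controls served for vorinostat, so its values stand beside those of romidepsin and are no independent repeat of them. At 10 µM, 3 members rose and 7 fell in CD4 cells, beside 10.9% and 7.1% of all tested genes, at a median of -0.33 against 0.02. The block fit called 7 up and 16 down, against 31.9% and 29.3%. Pfkl had 6.26 and 6.72 with vorinostat at 10 µM against 9.26 and 8.98 in controls, its fall of 2.63 ± 0.32 being 6.20-fold (adjusted p = 4.26e-05). Slc16a3 (4.52 and 4.60 with vorinostat) fell by 2.17 ± 0.33, Tpi1 (12.98 and 13.09) by 1.76 ± 0.27, Hk1 (10.73 and 10.85) by 1.06 ± 0.23 and Pkm (11.92 and 11.71) by 1.25 ± 0.29. Slc2a3 fell by 0.78 ± 0.19 and Pfkp by 0.95 ± 0.27, whereas Slc2a1 changed by -0.84 ± 0.42 and passed with the block alone (adjusted p = 0.00489). Eno2, at 7.98 and 7.41 with vorinostat, rose by 2.08 ± 0.38, Taldo1 (11.21 and 11.64) by 1.19 ± 0.36 and Cs (13.34 and 13.60) by 0.64 ± 0.21. Without control replicate 1 there were 5 calls, without vorinostat replicate 1 there were 6, and without replicate 2 of vorinostat or of the control 8 and 10. Slc16a3, Hk1, Pfkl, Tpi1 and Eno2 held in all 4. The block fit with the actin covariate called 1 up (Taldo1) and 5 down (Pfkl, Aldoc, Tpi1, Pkm and Sdha), so Slc2a3, Slc16a3, Hk1, Pfkp, Eno2 and Cs did not pass in it. Pfkp did not pass with the mean over its probe sets either (adjusted p = 0.648).

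Fewer members passed at the lower doses. Romidepsin at 10 nM in CD4 cells gave 1 member up and 4 down, beside 6.32% and 2.32% of all genes, at a median of -0.25 against 0.02, and 8 up and 10 down with the block (26.2% and 22% of all genes). Pfkl had 6.95 and 7.60 with romidepsin at 10 nM and fell by 1.85 ± 0.32, Slc16a3 (4.81 and 5.54) by 1.56 ± 0.33, Tpi1 (13.79 and 13.68) by 1.06 ± 0.27 and Hk1 (10.79 and 11.14) by 0.88 ± 0.23, and Eno2 (7.92 and 7.23) rose by 1.96 ± 0.38. Only Pfkl was left without romidepsin replicate 1, and 1 call was left without control replicate 1, whereas 4 were left without replicate 2 of either group. Vorinostat at 2 µM gave 1 call in CD4 cells, the fall of Pfkl to 6.63 and 7.37 (-2.12 ± 0.32, adjusted p = 0.00263), beside 1.08% of genes up and 0.334% down, and it was lost without replicate 1 of vorinostat or of the control (highest adjusted p = 0.0694). The block fit called 4 up and 7 down there, against 12.4% and 15.9% of all genes. Romidepsin at 2 nM and vorinostat at 0.5 µM gave no call among the members in either cell type with limma or with the block, and at most 1 member reached an unadjusted p under 0.05 in each of these 4 comparisons. Of all genes, romidepsin at 2 nM gave 0.0304% in CD4 and 0% in CD8 cells, and 0.922% and 0% with the block. Vorinostat at 0.5 µM gave 0.0101% and 0%, and 0.253% and 1.13% with the block.

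In CD8 cells fewer members passed with romidepsin. At 30 nM, 2 rose and 2 fell, beside 7.89% and 2.93% of all tested genes, at a median of -0.05 against 0.02, and the block fit called 7 up and 9 down (27.8% and 24.6% of all genes). Pfkl had 6.72 and 7.30 with romidepsin and 8.93 and 8.50 in CD8 controls, and fell by 1.71 ± 0.32 (adjusted p = 0.00224). Tpi1 had 13.13 and 13.63 with romidepsin against 14.72 and 14.28 and fell by 1.12 ± 0.27 (adjusted p = 0.0136), and not past the threshold without replicate 1 of romidepsin or of the control (highest adjusted p = 0.179). Eno2 had 7.52 and 7.06 against 5.13 and 5.35 and rose by 2.05 ± 0.38 (adjusted p = 0.00207), and Cs had 13.24 and 13.16 against 12.34 and 12.65 and rose by 0.70 ± 0.21 (adjusted p = 0.0415). Cs did not pass when any 1 of the 4 arrays was left out, and 2 calls were left without replicate 1 of either group, 5 without romidepsin replicate 2 and 3 without control replicate 2. Setting all arrays to equal medians gave 7 calls, with no share of all genes given for that fit, but Tpi1 was not among them (adjusted p = 0.123). After quantile normalization Eno2 did not pass (adjusted p = 0.0593). Slc2a3, at 13.12 and 13.64 with romidepsin against 13.51 and 13.40, and Hk1, at 10.52 and 11.06 against 10.81 and 10.93, overlapped with their controls. At 10 nM no member passed in CD8 cells with limma, beside 1.11% of genes up and 0.0101% down, 2 members had an unadjusted p under 0.05, and the block fit called 2 up and 2 down (Eno2 and Ldhb up, Pfkl and Pgd down; 9.06% and 8.13% of all genes).

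Vorinostat at 10 µM gave 3 members up and 8 down in CD8 cells, beside 12% and 8.5% of all tested genes, at a median of -0.09 against 0.00, and 5 up and 13 down with the block (31.6% and 32.4%). Pfkl had 6.04 and 6.55 with vorinostat and 8.93 and 8.50 in CD8 controls (-2.42 ± 0.32, adjusted p = 7.65e-05). Tpi1 had 12.37 and 12.61 against 14.72 and 14.28, and its fall of 2.01 ± 0.27 was 4.03-fold (adjusted p = 9.13e-05). Slc16a3 had 4.16, under the detection level, and 4.57 against 6.12 and 5.79, a fall of 1.59 ± 0.33 (adjusted p = 0.00285), and Slc16a1 had 11.11 and 11.54 against 12.48 and 12.49, a fall of 1.16 ± 0.29 (adjusted p = 0.00879). Both lactate transporters of the list thus fell in these cells, but Slc16a1 did not pass with the mean over its probe sets (-0.55, adjusted p = 0.528). The other probe set of Slc16a1 was over the detection level in 1 array. With any 1 array left out, the change of Slc16a1 ran from -1.37 to -0.94. Eno3 had 7.18 and 9.23 with vorinostat and 10.96 and 11.80 in controls, and its fall of 3.18 ± 0.89 (adjusted p = 0.0179) was the largest change of any member in any comparison with control. It did not pass without control replicate 2 or vorinostat replicate 1 (highest adjusted p = 0.22). Slc2a3 fell by 0.79 ± 0.19, Pfkp by 0.83 ± 0.27 and Pkm by 0.89 ± 0.29, and Eno2 rose by 2.10 ± 0.38, Cs by 0.99 ± 0.21 and Mdh2 by 0.47 ± 0.14. Without vorinostat replicate 1 there were 5 calls and without control replicate 1 there were 6, and in all 4 fits Slc16a3, Pfkl, Tpi1, Eno2 and Cs passed. The block fit with the actin covariate called 3 up and 6 down, without Slc2a3, Slc16a3, Pfkp, Pkm and Mdh2, and Slc2a3 did not pass with the mean over its probe sets or with equal medians either (adjusted p = 0.418 and 0.116). Pfkp also did not pass with the mean over its probe sets (adjusted p = 0.62).

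At 2 µM in CD8 cells Pfkl fell to 6.10 and 6.72 (-2.30 ± 0.32, adjusted p = 0.00066) and Tpi1 to 13.43 and 13.50 (-1.03 ± 0.27, adjusted p = 0.0483), and Eno2 rose to 7.15 and 6.71 (1.69 ± 0.38, adjusted p = 0.0211), beside 2.55% of genes up and 0.75% down. Pfkl alone passed in each of the 4 fits that left out 1 array. The block fit called 6 up and 9 down, against 16.4% and 20.5% of all genes.

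In total 4 members passed in all 4 top-dose comparisons with control: Pfkl and Tpi1 down, and Eno2 and Cs up. Of all tested genes, 1.74% were down and 5.28% up in all 4. With the actin covariate Pfkl and Tpi1 still passed in all 4, and Eno2 and Cs did not pass with vorinostat in CD4 cells. With romidepsin in CD8 cells, Tpi1 did not pass with equal medians and Eno2 did not pass after quantile normalization. Equal medians also lost each top-dose call of Pkm (adjusted p = 0.0905 and 0.117 with romidepsin and vorinostat in CD4 cells, and 0.305 with vorinostat in CD8 cells). With the block, 9 members were down (Slc2a1, Slc16a1, Slc16a3, Pfkl, Tpi1, Eno3, Pkm, Ldha and Tkt) and 5 up (Eno2, Ldhb, Taldo1, Cs and Mdh2) in all 4, against 16.1% and 19.1% of all genes. The romidepsin and vorinostat comparisons within a cell type share their control arrays. At the middle and top doses, 25 called changes were of genes with another probe set over the detection level on all 28 arrays, and in all 25 the other probe sets had the same sign. The probe sets of Slc2a3, Sdha, Aldoa, Pgd and Tkt are of kinds that the array maker marks as able to match transcripts of more than 1 gene. Gapdh was read from a control probe set of the array maker.

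Paralogues that encode the same enzyme step differed in their values. Eno2 rose at the top doses of both drugs in both cell types, and Eno3 changed by -3.18 to -1.71 in the same comparisons. For lactate dehydrogenase, Ldha changed by -0.85 to -0.38 and Ldhb by 0.84 to 1.35 at the top doses. Each passed in all 4 with the block and not in the limma fit without it. With equal medians and no block, Ldha passed with romidepsin in CD4 cells (adjusted p = 0.00337). In that fit it also passed with vorinostat in CD4 and CD8 cells (0.0177 and 0.000679). The subunit genes of phosphofructokinase ranged at 10 µM vorinostat in CD8 cells from -2.42 for Pfkl through -0.83 for Pfkp to 0.15 for Pfkm. Of the hexokinases, Hk1 changed by -0.45 ± 0.23 and Hk2 by 0.54 ± 0.26 with vorinostat at 2 µM in CD4 cells, each passing with the block alone (adjusted p = 0.0445 and 0.00807). Hk2 had 11.52 and 11.11 there, against 10.98 and 10.55 in controls, and 10.83 and 10.74 at 10 µM.

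**Figure D3:**
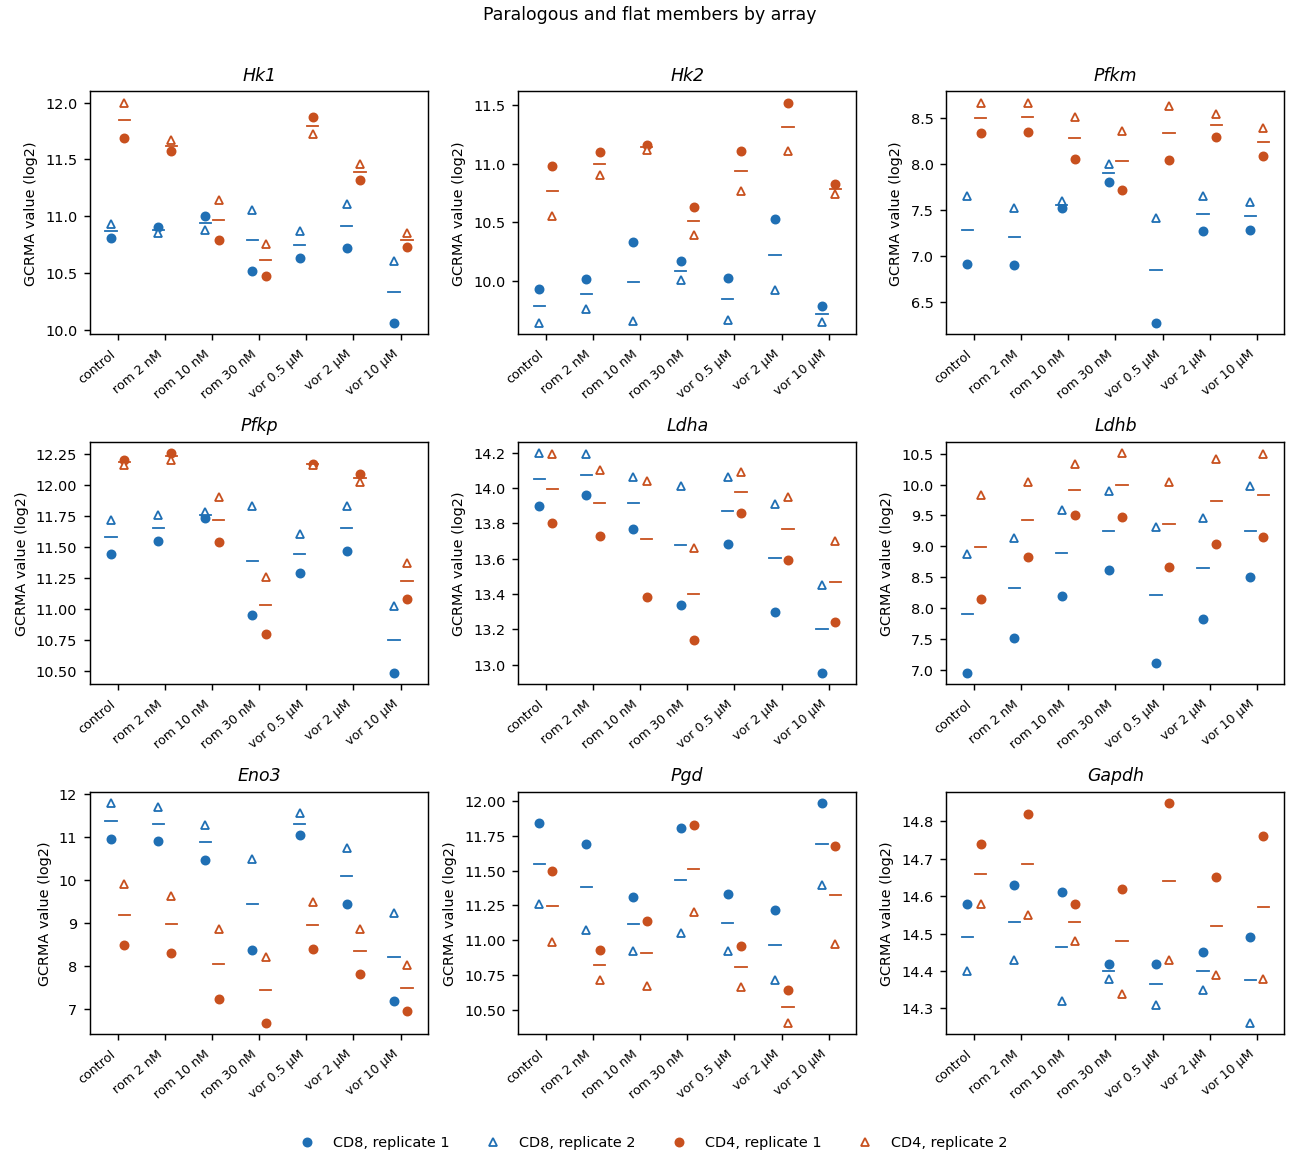
GCRMA values (log2, vertical axis) of 9 members in every array by drug and dose (horizontal axis), marked as in the plot of 6 members by array, on a separate vertical scale for each gene. Eno3 and Ldhb show a wide gap between replicates 1 and 2 in all groups, Pgd is lowest at the middle dose of vorinostat, and the axis of Gapdh spans less than 1 unit.

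A dose course was counted as ordered when both replicates moved the same way at every step from control to the top dose. Romidepsin in CD4 cells gave 1 member ordered upward (Eno2) and 9 downward, against 9.81% and 8.78% of all genes, and vorinostat in CD4 cells gave 4 upward and 8 downward, against 8.73% and 9.93%. In CD8 cells romidepsin gave 2 upward and 4 downward (9.21% and 9.18% of all genes) and vorinostat 5 upward and 6 downward (8.84% and 12.8%). Tpi1 and Pkm were ordered downward and Eno2 upward in all 4 courses.

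Between the middle and the top dose, vorinostat lowered 2 members in CD4 cells, Slc16a3 by 1.51 ± 0.33 and Tpi1 by 1.00 ± 0.27 (adjusted p = 0.0153 and 0.0421), beside 1.76% of genes down and 3.66% up. In CD8 cells it lowered Slc2a3 by 0.81 ± 0.19 and Tpi1 by 0.98 ± 0.27 (adjusted p = 0.0265, and 0.05 after rounding up for Tpi1), beside 1.81% down and 3.07% up. Neither CD4 call passed with any 1 of the 4 arrays left out, and of the CD8 calls only that of Slc2a3 passed in 1 such fit, the one without vorinostat 10 µM replicate 2. With the block these steps gave 5 up and 11 down in each cell type, against 25.9% and 17.8% of all genes in CD4 cells and 22.7% and 18.6% in CD8 cells. The step of romidepsin, 30 nM minus 10 nM, gave no member with limma (5 at an unadjusted p under 0.05 in CD4 and 3 in CD8 cells), beside 0.122% of all genes in CD4 and 0.466% in CD8 cells. With the block it gave 2 up and 3 down in CD4 cells (6.43% and 4.27% of all genes) and 2 up and 4 down in CD8 cells (12.8% and 8%).

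Pgd was among the members with means lowest at the middle dose of vorinostat. With vorinostat at 0.5, 2 and 10 µM it read 10.96, 10.64 and 11.68 in replicate 1 and 10.66, 10.40 and 10.97 in replicate 2 of CD4 cells, against 11.50 and 10.99 in controls. It was thus lowest at 2 µM in both replicates and near the control at 10 µM. The difference at 2 µM was -0.73 ± 0.37 in CD4 and -0.58 ± 0.37 in CD8 cells, and the step up to 10 µM was 0.80 ± 0.37 and 0.73 ± 0.37. These did not pass in the limma fit without the block and passed with it (adjusted p = 0.000963 and 0.00229 for the falls, 0.000255 and 0.000482 for the steps). With the mean over probe sets and no block they passed too (0.0258 and 0.0423 for the falls, 0.0125 and 0.0161 for the steps). Means of Sdha were also lowest at 2 µM. In CD4 cells they were 10.42, 10.24 and 10.38 at 0.5, 2 and 10 µM against 10.78 in controls. In CD8 cells they were 10.37, 10.27 and 10.52 against 10.81.

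Without drug, few members passed between CD8 and CD4 cells. No member was higher and 2 were lower in CD8 controls than in CD4 controls, beside 2.42% of all tested genes higher and 3.8% lower, a share near that of all genes, at a median of -0.29 against 0.06. An unadjusted p under 0.05 was reached by 14 of the 32 members. The share of all genes at that level is not given here, so this count has nothing to be set against. Hk1 had 10.81 and 10.93 in CD8 controls and 11.69 and 12 in CD4 controls (-0.97 ± 0.23, adjusted p = 0.0161). Hk2 had 9.93 and 9.64 in CD8 controls against 10.98 and 10.55 (-0.98 ± 0.26, adjusted p = 0.034). Both hexokinase genes were thus lower in every CD8 control array than in either CD4 control array, although 1 call at most passed when any 1 control array was left out (1 without a CD4 array, none without a CD8 array). The block fit called 5 members higher and 12 lower, against 21.2% and 16.3% of all genes, with Eno3 (2.19 ± 0.89, adjusted p = 7.28e-05 with the block), Slc16a1 (0.88 ± 0.29, 0.000688) and Idh3a (0.76 ± 0.28, 0.000119) higher and Aldoc (-1.36 ± 0.40, 5.37e-05), Pfkm (-1.21 ± 0.37, 0.000166), Slc2a1 (-1.0 ± 0.42, 0.00304) and Ldhb (-1.08 ± 1.00, 0.000677) among the lower.

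The responses of the cell types were compared as CD8 minus CD4 differences of the changes, which use the same control arrays as the comparison of controls. With limma no member passed at any of the 6 doses, although at 30 nM romidepsin Slc2a3, Hk1 and Pfkm passed after quantile normalization (adjusted p = 0.0336, 0.0269 and 0.0437), and Slc2a3 also with no filter and with a trended, robust fit (0.0451 and 0.0483). Of all tested genes 0%, 0.0709% and 1% passed at 2, 10 and 30 nM romidepsin, and 0%, 0.0101% and 0.577% at 0.5, 2 and 10 µM vorinostat. At 10 and 30 nM romidepsin 2 and 5 members had an unadjusted p under 0.05, and none had at the other 4 doses. With the block 9 members passed at 30 nM romidepsin, 8 higher and 1 lower in CD8 cells, against 8.44% and 9.13% of all genes, at a median of 0.19 against -0.07. Hk1 changed by -0.29 and 0.13 in replicates 1 and 2 of CD8 cells and by -1.21 and -1.24 in CD4 cells, a difference of 1.15 (95% interval 0.45 to 1.84, adjusted p = 0.16, and 0.00405 with the block). Slc2a3 changed by -0.39 and 0.25 in CD8 and by -1.21 and -0.99 in CD4 cells, a difference of 1.03 (0.44 to 1.61, adjusted p = 0.117, and 0.00721 with the block). For Slc16a3 the changes were -1.55 and -0.24 in CD8 and -2.97 and -1.94 in CD4 cells, a difference of 1.56 (0.56 to 2.55, adjusted p = 0.2, and 0.0257 with the block). For each of these 3 genes the CD8 change lay above the CD4 change in both replicates.

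The changes of Pfkm and Aldoc at 30 nM had opposite signs in the cell types. Pfkm changed by 0.89 and 0.35 in CD8 and by -0.62 and -0.30 in CD4 cells (difference 1.08, adjusted p = 0.655, and 0.0142 with the block), and Aldoc by 0.48 and 0.27 in CD8 and by -0.36 and -0.88 in CD4 cells (0.99, adjusted p = 0.822, and 0.0202 with the block). Pfkl (0.40) and Eno2 (-0.09) did not pass with either fit, and their 95% intervals without the block ran from -0.55 to 1.36 and from -1.22 to 1.05. At 10 nM the block fit called Hk1 (0.95) and Taldo1 (-0.59), against 3.58% of all genes up and 4.82% down, and at 10 µM vorinostat Slc16a1 (-0.76) and Eno3 (-1.47), against 5.36% and 5.32%. At the top dose of vorinostat Hk1 differed by 0.52 and Slc2a3 by -0.01 (0.99 with the mean over its probe sets), none of these passing.

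**Figure D4:**
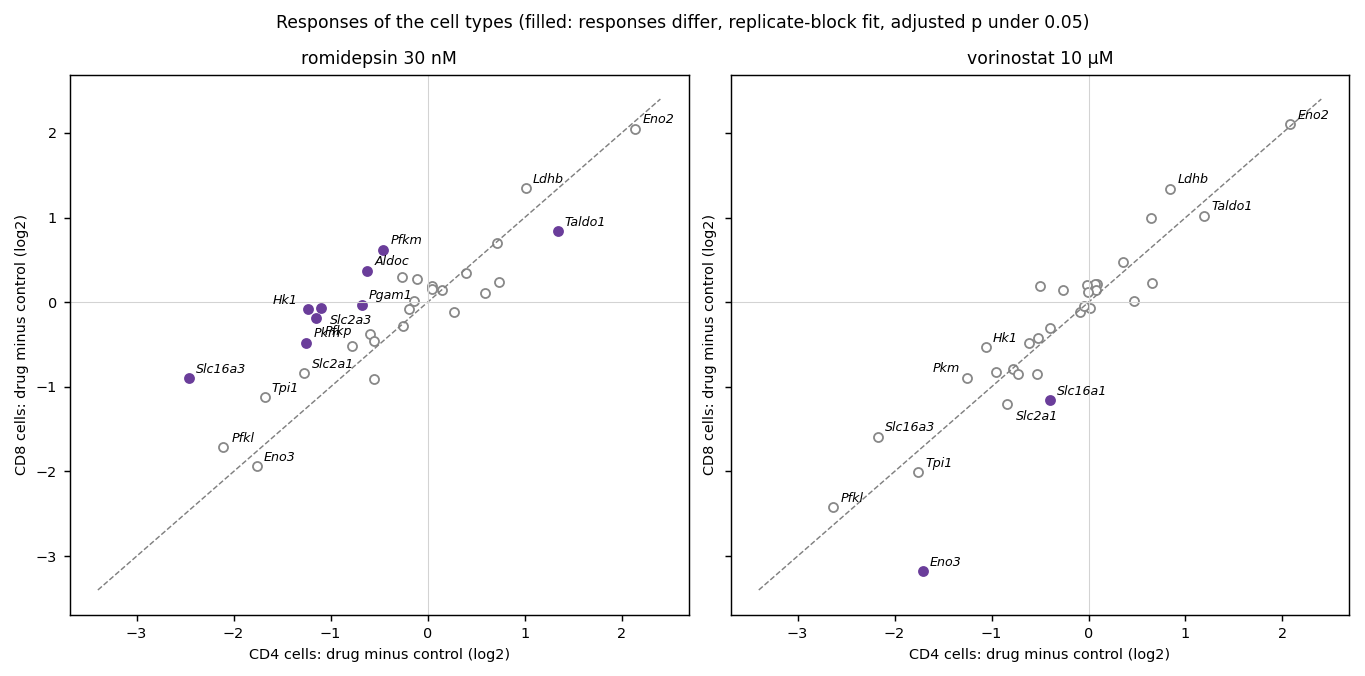
Change with drug in CD8 cells (log2, vertical axis) against change in CD4 cells (log2, horizontal axis) for the 32 members, romidepsin at 30 nM on the left and vorinostat at 10 µM on the right, with the line of equal change dashed and filled points where the responses differed in the block fit. On the left Hk1, Slc2a3, Slc16a3, Pfkp, Pkm, Pgam1, Pfkm and Aldoc lie above the line and Taldo1 below it, and on the right Slc16a1 and Eno3 lie below it.

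Other genes of these pathways were read from lists written by role, with earlier results of these data known. Their counts stand beside the shares of all tested genes given above. In CD4 cells these were 13.3% up and 7.91% down with romidepsin at 30 nM (35.3% and 28.3% with the block) and 10.9% and 7.1% with vorinostat at 10 µM (31.9% and 29.3%). In CD8 cells they were 7.89% and 2.93% with romidepsin (27.8% and 24.6%) and 12% and 8.5% with vorinostat (31.6% and 32.4%).

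Of genes that carry or carboxylate pyruvate or act on pyruvate dehydrogenase, 11 tested of 14 listed, 6 rose and none fell in CD4 cells with romidepsin at 30 nM (median 0.70), 5 and none with vorinostat at 10 µM (0.65), and in CD8 cells 3 and none with romidepsin (0.25) and 5 and none with vorinostat (0.46). With the block 7 were up and 2 down, 8 and 2, 5 and 2, and 6 and 2 in the same order. The 2 were in each case Pck2, a mitochondrial enzyme that makes phosphoenolpyruvate (changes of -2.45 to -1.37), and Pdp2, a phosphatase of pyruvate dehydrogenase (-1.24 to -0.56), both named after their values were seen. Mpc1, a subunit of the mitochondrial pyruvate carrier, had 12.44 and 12.17 with romidepsin at 30 nM and 12.46 and 12.30 with vorinostat at 10 µM against 10.61 and 10.91 in CD4 controls (rises of 1.54 ± 0.30 and 1.62 ± 0.30). In CD8 cells it had 12.72 and 12.02 with romidepsin and 12.81 and 12.63 with vorinostat against 11.07 and 10.91 (1.38 ± 0.30 and 1.73 ± 0.30). Pdp1, the phosphatase that activates pyruvate dehydrogenase, had 8.82 and 8.23 with 30 nM romidepsin against 5.77 and 5.03 in CD4 controls and rose by 3.13 ± 0.40 (adjusted p = 5.37e-05). Dlat, the acetyltransferase subunit of that complex, rose there by 1.26 ± 0.32. Pcx, which carboxylates pyruvate to oxaloacetate, had 8.12 and 7.98 with romidepsin against 4.60 and 5.60 in CD8 controls (2.95 ± 0.31) and 9.49 and 9.30 against 8.55 and 8.42 in CD4 controls (0.91 ± 0.31). The responses of Pcx differed by 2.04 ± 0.44 with romidepsin and 2.38 ± 0.44 with vorinostat at 10 µM (adjusted p = 0.0306 and 0.0168).

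Among 15 tested of 31 other glycolysis genes, 2 rose and 2 fell in CD4 cells with romidepsin at 30 nM and 3 rose and none fell in CD8 cells, and with vorinostat at 10 µM 2 rose and 2 fell in CD4 cells and 4 and 2 in CD8 cells. The rises in CD4 cells at 30 nM are the share of all genes that rose (13.3%), and the block fit called 7 up and 5 down there and 8 and 2 in CD8 cells with romidepsin, and 5 and 4 in CD4 and 8 and 3 in CD8 cells with vorinostat. Tigar, a phosphatase that lowers the activator of phosphofructokinase, had 8.13 and 8.30 with 30 nM romidepsin against 5.31 and 6.09 in CD4 controls (2.52 ± 0.35, adjusted p = 9.59e-05) and rose in all 4 top-dose comparisons. Pgm1, which links glucose phosphate to glycogen, fell in CD4 cells to 7.50 and 7.67 with romidepsin against 9.76 and 9.95 (-2.27 ± 0.46, adjusted p = 0.00218). The monocarboxylate transporter Slc16a6 fell by 2.70 ± 0.84 in the same cells. Of the other pentose phosphate genes, 8 tested of 11, 1 rose and none fell in CD4 cells at 30 nM (3 and 4 with the block), with a median of -0.10, and in CD8 cells with vorinostat at 10 µM 1 rose and 2 fell (2 and 5 with the block). The 2 falls were of Rpia, a ribose phosphate isomerase (by 0.96 ± 0.16), and Rpe, an epimerase of pentose phosphates (by 0.89 ± 0.18).

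Of 21 tested other TCA cycle genes of 24, 2 rose and none fell in CD4 cells at 30 nM, Sdhc (a subunit of succinate dehydrogenase, 0.76 ± 0.20) and Slc25a11 (a 2-oxoglutarate carrier of the inner membrane, 1.54 ± 0.52), at a median of 0.16 against 0.07 for all genes. These 2 are a smaller share than the 13.3% of all genes that rose, and the block fit called 9 up and 6 down. Of 27 tested genes of the respiratory chain and ATP synthase, 28 being listed, 5 rose and none fell in the same comparison, against 13.3% and 7.91% of all genes, and none passed in CD8 cells with romidepsin at 30 nM, where 3 had an unadjusted p under 0.05. With the block 12 were up and 5 down in CD4 cells and 10 and 4 in CD8 cells. Ndufv1, a subunit of complex I, had 12.49 and 12.18 with romidepsin against 10.74 and 11.32 in CD4 controls (1.30 ± 0.27, adjusted p = 0.00269).

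**Figure D5:**
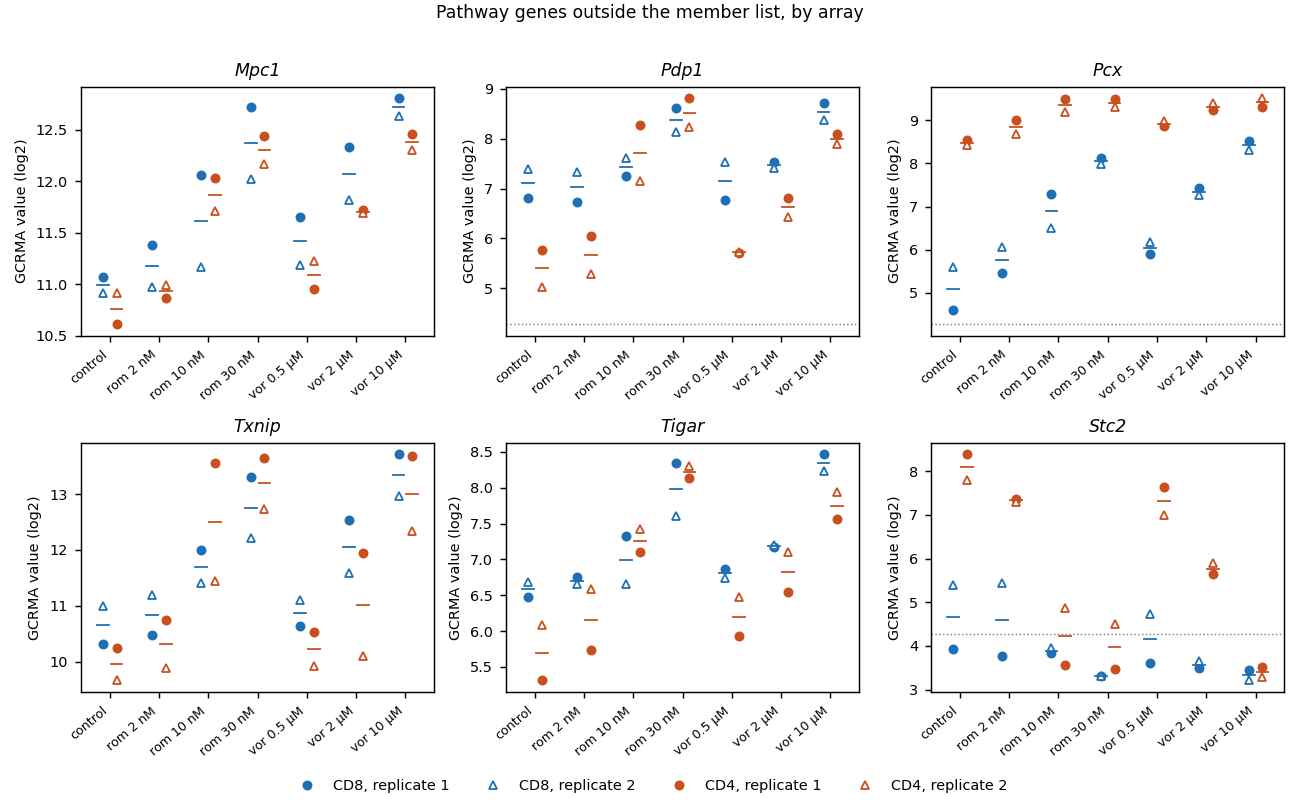
GCRMA values (log2, vertical axis) of 6 pathway genes outside the member list in every array by drug and dose (horizontal axis), marked as in the plot of 6 members by array, with the detection level of 4.27 dotted. Mpc1, Pdp1, Pcx, Txnip and Tigar are higher at the top doses than in the controls of the same cell type, and Stc2 is lower in CD4 cells and near or under the detection level in CD8 cells.

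Genes known to answer to hypoxia-inducible factors, which also drive many glycolytic genes, were counted without the members. Of 23 tested of 26 listed, none rose and 10 fell in CD4 cells with romidepsin at 30 nM, against 13.3% and 7.91% of all genes, at a median of -0.63, and none rose and 7 fell with vorinostat at 10 µM, against 10.9% and 7.1%. With the block 2 were up and 15 down, and 2 up and 11 down. In CD8 cells 2 rose and 2 fell with romidepsin, at a median of -0.01, and 4 rose and 6 fell with vorinostat (8 and 6, and 7 and 9, with the block). CD8 controls lay below CD4 controls in 8 of the 23, with none higher, beside 3.8% of all tested genes lower and 2.42% higher, at a median of -0.89. The difference of the responses to romidepsin at 30 nM passed for 2, both higher in CD8 cells (0.851% of all genes higher). With the block it passed for 11, beside 8.44% of all genes higher and 9.13% lower. Bhlhe40, a transcriptional repressor, had 10.08 and 10.49 with romidepsin against 12.44 and 12.36 in CD4 controls (-2.11 ± 0.35, adjusted p = 0.000381). Stc2, a secreted glycoprotein gene, had 3.52 and 3.30 with vorinostat at 10 µM, both under the detection level, against 8.39 and 7.80 in CD4 controls, at least 14.1-fold lower against that level (adjusted p = 4.38e-05). P4ha2, a collagen prolyl hydroxylase subunit, had 7.83 and 7.79 with 30 nM romidepsin against 5.60 and 4.66 in CD8 controls (2.68 ± 0.38) and 8.29 and 8.17 against 8.51 and 8.64 in CD4 controls (-0.35 ± 0.38). Its responses differed by 3.03 ± 0.54 (adjusted p = 0.0112).

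Of 20 tested regulators of glycolytic genes, 23 being listed, 1 rose and 2 fell in CD4 cells at 30 nM romidepsin, and 6 and 8 with the block. Txnip, which lowers glucose uptake, had 13.65 and 12.74 with romidepsin against 10.24 and 9.66 in CD4 controls (3.25 ± 0.72, adjusted p = 0.00409), while in CD8 cells, at 13.31 and 12.21 against 10.32 and 11, it changed by 2.10 ± 0.72 and passed with the block alone (adjusted p = 0.0771, and 0.00139 with the block). The oxygen sensors Egln3 and Egln1, prolyl hydroxylases that mark hypoxia-inducible factors for destruction, fell by 2.30 ± 0.33 and 1.35 ± 0.28 in CD4 cells. Epas1, which encodes a hypoxia-inducible factor, had 6.73 and 7.27 with romidepsin and 6.89 and 7.38 with vorinostat at 10 µM against 2.93 and 3.45 in CD8 controls, both controls lying under the detection level. It was at least 6.63-fold and 7.26-fold higher than that level (adjusted p = 0.00121 and 0.000514). In CD4 cells Epas1 had 8.65 and 9.29 with romidepsin against 8.69 and 10.29 in controls, and its responses differed (adjusted p = 0.0298).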

How the data were processed

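Gene expression had been measured on Affymetrix Mouse430_2 arrays, and the deposited values were made by the authors with GCRMA, per the submitters' processing notes, which name no version. The log base is not given in the sources used here, and from their range the deposited values were read as log2. Of 45101 probe sets, 34958 named 1 gene, 932 several and 9211 none. Per gene the probe set with the highest mean over the 28 arrays was used, and genes over 4.27 (the mode of all values, 2.275, plus 2) in at least 2 arrays were tested.

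One limma model (limma 3.58.1, R 4.3.3; lmFit and eBayes) was fitted over all 14 groups and 9871 genes, with Benjamini-Hochberg adjustment within each comparison. There were 14 residual degrees of freedom, or 12 once replicate number entered as a block. Within a cell type, the replicate differences of any 2 groups correlated across genes at 0.762 to 0.94 in CD4 and 0.768 to 0.958 in CD8 cells (21 pairs of groups each), so equal numbers go together in these data, although no label says what they share. The fit was tested on simulated data for romidepsin 10 nM minus control in CD4 cells over 9871 genes. It recovered 14.3%, 48.8% and 71.8% of genes changed by 1, 2 and 3 log2 units without the block and 80.3%, 96.7% and 99.1% with it. These rates hold for the made-up data alone and depend on how those were drawn. Recovery in the arrays themselves was not tested, so the rates give no ranking of the fits there.

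All measured members are counted, and those that passed or that the block alone called are named. Outside the member list and the cell markers, a pathway gene could be named where it passed in at least 1 of the 8 comparisons of a middle or top dose with control, at most 4 rises and 4 falls per list by size, and not all of these are named. Pck2 and Pdp2 were added after their values were seen. The members and lists were chosen with earlier results of these data known. Alternatives were other scalings, filters and probe set rules, the block, and leaving out each array.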

Additional observations from a re-analysis of the deposited data

Results flagged for a closer look

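For the results here, the responses to drug differed between CD8 and CD4 cells by the test of the difference itself, in the fit with the replicate block. Without the block none of them passed in the limma fit used for the report. At 30 nM romidepsin, fits without the block passed Slc2a3, Hk1 and Pfkm after quantile normalization (adjusted p = 0.0336, 0.0269 and 0.0437) and Slc2a3 with no filter (0.0451) and with a trended, robust fit (0.0483). All values are the CD8 change minus the CD4 change in log2 units.

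At 10 nM romidepsin Hk1 differed by 0.95 (adjusted p = 0.496, and 0.022 with the block) and Taldo1 by -0.59 (1.0, and 0.0351 with the block). At 30 nM the transporters Slc2a3 and Slc16a3 differed by 1.03 (0.117, and 0.00721 with the block) and 1.56 (0.2, and 0.0257 with the block). In upper glycolysis Hk1 differed by 1.15 (0.16, and 0.00405 with the block), Pfkm by 1.08 (0.655, and 0.0142 with the block), Pfkp by 0.96 (0.456, and 0.015 with the block) and Aldoc by 0.99 (0.822, and 0.0202 with the block). In lower glycolysis Pgam1 differed by 0.65 (0.566, and 0.0173 with the block) and Pkm by 0.78 (0.734, and 0.0301 with the block), and Taldo1 differed by -0.50 (1.0, and 0.0436 with the block).

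At 10 µM vorinostat Slc16a1 differed by -0.76 (1.0, and 0.0498 with the block) and Eno3 by -1.47 (1.0, and 0.0469 with the block).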

How the results depend on the processing

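No member that passed in the fit reported or in the alternative changed sign between them. Of the 736 changes (32 members in 23 comparisons), others that passed in neither did: 353 in at least 1 fit without 1 array (Slc2a3 and Hk1 with romidepsin 30 nM in CD8 cells, -0.07 and -0.08, were each 0.19 without romidepsin replicate 1), 87 with the block and the actin covariate, 55 with the mean over probe sets, 37 with equal medians and 24 with quantile normalization. The median of the members for romidepsin 30 nM in CD8 cells, -0.05, was 0.03 with the actin covariate. The counts below are members passing in either direction. Shares of all genes are given above for the replicate block. They are not given for the other fits here, so those counts have nothing to be set against. With the replicate block they were 18 and 23 for romidepsin at 10 and 30 nM and 11 and 23 for vorinostat at 2 and 10 µM in CD4 cells, and 4, 16, 15 and 18 for the same doses in CD8 cells. The steps gave 5 (romidepsin) and 16 (vorinostat) in CD4 and 6 and 16 in CD8 cells, the responses 2, 9 and 2 (romidepsin 10 and 30 nM, vorinostat 10 µM), and the controls 17. With the block and the actin difference as a covariate, chosen after seeing the data, CD4 cells gave 12 and 13 (romidepsin 10 and 30 nM), 10 and 6 (vorinostat 2 and 10 µM), CD8 cells gave 5 and 11 (romidepsin 10 and 30 nM), 2, 11 and 9 (vorinostat 0.5, 2 and 10 µM), the steps 3 and 4 in CD4 and 4 and 6 in CD8 cells, the responses 4, 9 and 3, and the controls 21. The mean over probe sets gave 2 for vorinostat 2 µM in CD4 cells and 1 each for romidepsin 10 nM in CD8 cells, the CD8 vorinostat step and the controls. Equal medians gave 7 for romidepsin 30 nM in CD8 cells, 1 for the CD8 vorinostat step and 6 for the controls. Quantile normalization gave 6 and 4 for the vorinostat steps in CD4 and CD8 cells, 3 for the response to romidepsin 30 nM and 8 for the controls. That response gave 1 with no filter and 1 with a trended, robust fit, which gave 4 for the controls. Leaving out 1 array gave 1 to 4 (romidepsin 10 nM), 7 to 14 (30 nM), 0 to 2 (vorinostat 2 µM) and 5 to 10 (10 µM) in CD4 cells, 2 to 5 (romidepsin 30 nM), 1 (vorinostat 2 µM) and 5 to 9 (10 µM) in CD8 cells, 0 and 0 to 1 for the CD4 and CD8 vorinostat steps, and 0 to 1 for the controls. An arm left with 1 array was taken to vary like the other groups. The causes were not tested. With 2 arrays a group, changes under about 1 unit often lie within the error without the block, and genes near 4.27 or over 13 may be compressed.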
